A study of Mus musculus with 36 samples.

Results

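The proteins of the cytosolic ribosome are encoded by a family of genes that were followed here through X-irradiation and through a deletion of the p53 C-terminus in mouse liver, spleen and thymus. Members were the protein-coding mouse genes whose symbol begins with Rpl or Rps followed by a number, together with Rplp0, Rplp1, Rplp2, Rpsa and Fau, leaving out the Rps6k kinases and pseudogenes. There were 83 such genes in both deposited tables, of 19001 genes in the paired-end table and 17697 in the single-end table. They were 32 small-subunit genes, 45 large-subunit genes and 6 paralogs (Rps27l, Rpl22l1, Rpl3l, Rpl39l, Rpl7l1 and Rpl32l). Rpl39 was in the paired-end table alone, and Rpl10l was not analysed here.

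The series holds 36 libraries of total RNA in 12 groups of 3, grouped here by their titles. In the paired-end table, wt liver, spleen and thymus taken 3 h after 2 Gy of X-rays stood against the same wt tissues without treatment. In the single-end table, d24 liver, spleen and thymus stood against wt liver, spleen and thymus, and all 18 of these libraries are titled xray. The d24 allele lacks the C-terminal end of p53, so the total of Trp53 reads does not check it. The labels disagree with each other in the single-end table. Their characteristics call 9 libraries titled xray controls (d24 liver, d24 thymus and wt spleen) and call the 9 libraries titled d24 WT. By those characteristics the treatment differs between d24 and wt in every tissue, so genotype and treatment cannot be told apart there. A dose of 2 Gy and a time of 3 h are given for d24 spleen, wt liver and wt thymus. None is given for the 9 libraries called controls. Age, sex, strain and the animal behind each library were not given in the labels, so the p-values below measure the spread between libraries.

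The unit of both tables is called signal here: reads of a gene per 1000000 reads of a library size that the submitters scaled for composition. Paired-end libraries held 44348579 to 81322683 reads and single-end libraries 20481048 to 38042710. Hepatocyte markers summed to 338100 to 384600 in untreated liver, B cell markers to 2630 to 2888 in untreated spleen and T cell markers to 5554 to 6367 in untreated thymus. The summed signal of 10 p53 target genes was 512 to 585 in X-ray liver against 183 to 197 in untreated liver, 1522 to 1618 in X-ray spleen against 312 to 329 in untreated spleen, and 1183 to 1288 in X-ray thymus against 302 to 324 in untreated thymus. In the single-end table the same sum was 399 to 699 in d24 liver against 236 to 344 in wt liver, 1228 to 1708 in d24 spleen against 333 to 379 in wt spleen, and 580 to 740 in d24 thymus against 359 to 415 in wt thymus. Trp53 itself had a signal of 42.2 to 51.0 in d24 liver against 34.6 to 55.7 in wt liver, 145 to 236 in d24 spleen against 91.9 to 107 in wt spleen, and 97.0 to 145 in d24 thymus against 107 to 129 in wt thymus.

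A ribosome is built from a small subunit, which reads the mRNA, and a large subunit, which joins the amino acids. Each subunit is rRNA with a set of proteins that are mostly present in a single copy, and most of the genes are highly expressed. Most of the mRNAs begin with a terminal oligopyrimidine (TOP) tract, an unbroken run of C and T at the start of transcription, through which mTORC1 and LARP1 control their translation. Free Rpl5, Rpl11 and several other ribosomal proteins bind Mdm2, the ligase that degrades p53, which ties ribosome assembly to p53. A few members have a paralog that can take their place, and Rps27l, the paralog of Rps27, is a p53 target gene in human and mouse cells.

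The DNA around the transcription start is shown for 4 members whose X-ray differences are described below, for 2 parent genes of paralogs, and for Rpl7a and Fau as clear TOP starts. Sequences and coordinates are from RefSeq, build GRCm38.p6, with 30 bases of the gene's strand from 5′ to 3′, and capitals mark the unbroken pyrimidine run that touches the window from 3 bases before to 6 bases after the start.
Rps27l, chr9:66946071-66946100, plus strand: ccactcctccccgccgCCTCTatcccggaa
Rps27, chr3:90213634-90213663, minus strand: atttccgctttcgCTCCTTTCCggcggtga
Rpl22l1, chr3:28805493-28805522, plus strand: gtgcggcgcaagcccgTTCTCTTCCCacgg
Rpl22, chr4:152324421-152324450, plus strand: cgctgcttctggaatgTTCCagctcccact
Rps19, chr7:24884661-24884690, plus strand: ccgcacggtgagtgagggCTCTgggtcgcg
Rpl7l1, chr17:46782642-46782671, minus strand: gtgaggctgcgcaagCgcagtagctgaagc
Rpl7a, chr2:26910792-26910821, plus strand: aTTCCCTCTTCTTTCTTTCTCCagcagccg
Fau, chr19:6057932-6057961, plus strand: tgcgcgcccccaCTTCTTCCTCTTTCTTga

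The run spans 21 bases in Rpl7a and 16 in Fau. It spans 10 bases in Rpl22l1 and 9 in Rps27, and 5 in Rps27l, 4 in Rpl22, 4 in Rps19 and 1 in Rpl7l1. A promoter entry was found for 63 of the 83 members. Their median run was 5 bases, against 3 bases in the other genes. A run of at least 8 bases was present in 24 members (38.1%), against 10.1% of all 27025 genes with a promoter entry. Where a gene had several annotated starts, the one with the longest run was taken, in members and other genes alike. An annotated start can lie apart from the start used in a tissue, so these runs describe the reference sequence.

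The pair Rps27l and Rps27 moved apart after X-rays in spleen and thymus. Rps27l had a signal of 165.4, 137.1 and 140.3 in X-ray spleen, against 74.9, 78.1 and 78.3 in untreated spleen. In thymus it had 112.6, 105.1 and 93.6 after X-rays, against 49.3, 52.3 and 47.0 untreated. Every irradiated library of both tissues lay above every untreated one, with a wide gap. The log2 difference of Rps27l was 0.93 ± 0.11 (SE) in spleen (adjusted p = 0.000574) and 1.06 ± 0.09 in thymus (adjusted p = 6.6e-05), by limma, with p-values adjusted by the Benjamini-Hochberg method across every gene tested. It was the 1 member called higher in spleen, where 19.5% of all genes were called higher, and 1 of 2 members called higher in thymus, where 9.77% were.

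In liver, Rps27l had a signal of 187.3, 182.0 and 175.3 after X-rays, against 159.5, 176.8 and 183.9 untreated. The groups overlapped, and the log2 difference was 0.07 ± 0.10 (limma adjusted p = 0.697). Every untreated liver library was above every untreated spleen and thymus library on the deposited scale, and the highest irradiated spleen library lay among the liver values.

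Rps27, a small-subunit protein with a zinc finger, had a signal of 805.8, 719.5 and 651.7 in X-ray spleen, against 796.5, 639.3 and 685.5 in untreated spleen. In thymus it had 839.5, 756.7 and 580.4 after X-rays, against 696.4, 648.6 and 674.5 untreated. The groups overlapped in both tissues, with log2 differences of 0.04 ± 0.15 and 0.09 ± 0.14 (limma adjusted p = 0.859 and 0.665). The ratio of Rps27l signal to Rps27 signal was 0.205, 0.190 and 0.215 in X-ray spleen, against 0.0940, 0.122 and 0.114 in untreated spleen. It was 0.134, 0.139 and 0.161 in X-ray thymus, against 0.0708, 0.0806 and 0.0697 in untreated thymus, and in liver 0.705, 0.565 and 0.550 after X-rays, against 0.631, 0.599 and 0.677 untreated. The ratio was thus highest in liver with or without X-rays, and it separated irradiated from untreated libraries in spleen and thymus alone.

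Rpl22l1 and Rpl22 encode alternative forms of a large-subunit protein that is needed for T cell development in mice. Rpl22l1 had a signal of 72.4, 63.8 and 64.0 in X-ray spleen, against 103.7, 93.9 and 83.9 untreated, and of 62.9, 48.0 and 43.7 in X-ray thymus, against 66.4, 65.5 and 68.5 untreated. All irradiated libraries were below the untreated ones, in thymus by a narrow margin in 1 library. Rpl22l1 fell in spleen by 0.49 on the log2 scale (SE 0.12, limma adjusted p = 0.0115) and in thymus by 0.39 (SE 0.12, adjusted p = 0.0483). The spleen call was lost without untreated replicate 1 or X-ray replicate 3 (adjusted p up to 0.0582), and the thymus call without any 1 of 5 libraries, all but X-ray replicate 1 (adjusted p up to 0.151). In liver the direction of the values was the opposite, with 99.8, 108.3 and 109.0 after X-rays against 80.8, 92.4 and 90.4 untreated. The liver groups did not overlap, and the difference of 0.27 ± 0.11 did not pass (limma adjusted p = 0.208).

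Rpl22 had a signal of 247.6, 245.3 and 223.3 in X-ray spleen, against 310.9, 293.4 and 297.2 untreated, with no overlap. Rpl22 fell by 0.33 (SE 0.11, limma adjusted p = 0.0425), a call that was lost without any library but X-ray replicate 1 (adjusted p up to 0.149). Its differences were -0.07 ± 0.09 in thymus and 0.01 in liver (limma adjusted p = 0.598 and 0.960).

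Rpl7l1 is the paralog of Rpl7 and is known for a role in early mouse development. It had a signal of 64.6, 67.5 and 59.9 in X-ray thymus, against 85.2, 83.7 and 86.4 in untreated thymus. The groups were well separated, and Rpl7l1 fell by 0.41 (SE 0.07, limma adjusted p = 0.00528). Its differences were -0.11 ± 0.10 in spleen (adjusted p = 0.401) and 0.12 in liver (adjusted p = 0.573). Rpl7 itself differed by -0.29 ± 0.15 in spleen, -0.09 ± 0.12 in thymus and 0.16 in liver, and none of the 3 passed the limma test (adjusted p = 0.147 in spleen and 0.620 in thymus).

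The other paralogs were lower in level. Rpl32l had a signal of 19.1, 19.3 and 15.6 in X-ray spleen, against 25.8, 22.4 and 21.7 untreated. The groups did not overlap, and Rpl32l fell by 0.37 (SE 0.12, limma adjusted p = 0.0416). Rpl32l was named after its values were seen, and its call was lost without any 1 of 4 libraries (the untreated ones and X-ray replicate 3, adjusted p up to 0.159). Rpl3l, the form of Rpl3 found in heart and skeletal muscle, had at most 0.345 in any paired-end library. Rpl39l, the form of Rpl39 that is enriched in testis, had at most 1.30 there, and both were too low to be tested in the paired-end table. Paralogs and their parents share stretches of sequence, and most members have near-identical processed pseudogenes. The sources used here do not say how reads that fit several places were counted, so small differences within such pairs are uncertain.

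**Figure D1:**
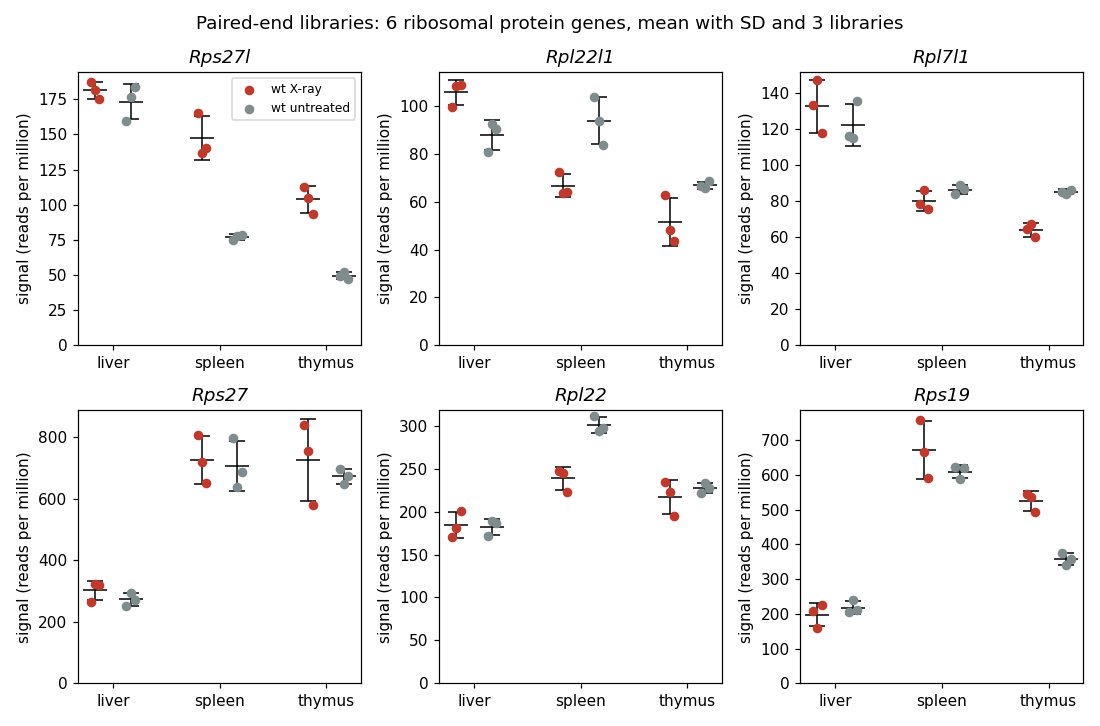
Signal (reads per 1000000 of scaled library size) of paralogs and their parent genes in the paired-end wt libraries of liver, spleen and thymus, X-ray left of untreated, with 1 point per library and the group mean with its SD (n = 3). Rps27l separates X-ray from untreated libraries in spleen and thymus while Rps27 overlaps, and Rpl22l1 lies lower after X-rays in spleen and thymus.

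Among the small-subunit proteins, Rps19 stood out in thymus. Rps19 is needed to mature the small-subunit rRNA and is the gene most often mutated in Diamond-Blackfan anaemia in humans. It had a signal of 546.6, 536.0 and 492.7 in X-ray thymus, against 375.2, 342.1 and 357.7 in untreated thymus. The groups were far apart, and Rps19 rose by 0.55 ± 0.09 on the log2 scale (limma adjusted p = 0.00306), in 3 of 3 libraries. In spleen it had 756.9, 665.0 and 590.2 after X-rays, against 621.9, 587.9 and 618.9 untreated. Those groups overlapped, with a difference of 0.13 ± 0.14 (limma adjusted p = 0.486), and in liver the difference was -0.15 (adjusted p = 0.518).

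Of the 32 small-subunit members, 2 fell in spleen after X-rays (6.25%), where 20.4% of all genes were called lower. Rps2, which lies at the mRNA entrance of the subunit, had a signal of 918.7, 774.8 and 648.5 in X-ray spleen, against 1182, 1201 and 1180 untreated. The untreated libraries lay close together and the irradiated ones were spread below them. Rps2 fell by 0.62 (SE 0.17, limma adjusted p = 0.0175). Rps4x, whose gene lies on the X chromosome, had 594.7, 566.5 and 514.0 in X-ray spleen, against 864.8, 760.4 and 736.2 untreated, with no overlap. Rps4x fell by 0.49 (SE 0.14, limma adjusted p = 0.0217). Both calls were lost without X-ray replicate 3 or any 1 of the untreated libraries, with adjusted p up to 0.0631 for Rps2 and 0.1001 for Rps4x.

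Other small-subunit members of interest did not pass the limma test in any tissue. Rps3, which also has a role in DNA repair, differed by -0.20 in spleen, 0.02 in thymus and 0.01 in liver. Rps6, the target of the Rps6k kinases, differed by -0.31 in spleen (adjusted p = 0.121), -0.15 in thymus and 0.21 in liver. Rpsa, also known as the laminin receptor, had a signal of 1575, 1364 and 1175 in X-ray spleen, against 1835, 1767 and 1783 untreated. These groups did not overlap, but the difference of -0.40 ± 0.17 did not pass (limma adjusted p = 0.0925). Fau, which is made as a fusion of a ubiquitin-like protein and a ribosomal protein, had 346.1, 377.8 and 340.7 in X-ray thymus, against 333.2, 301.9 and 273.6 untreated. The Fau groups did not overlap, and the difference of 0.23 ± 0.10 did not pass (adjusted p = 0.113).

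Among the 45 large-subunit members, 3 (6.67%) fell in spleen (Rpl36a, Rpl22 and Rpl14), where 20.4% of all genes were called lower. None was called in thymus, where 9.77% of all genes were called higher and 11.6% lower. Rpl36a, which sits near the exit site for tRNA, had a signal of 302.8, 277.0 and 262.3 in X-ray spleen, against 431.7, 373.5 and 372.8 untreated, with no overlap. Rpl36a fell by 0.48 (SE 0.13, limma adjusted p = 0.0160), which was lost without untreated replicate 1 or X-ray replicate 3 (adjusted p up to 0.0796). Rpl14, named after its values were seen, had 498.9, 500.6 and 431.5 in X-ray spleen, against 632.3, 616.1 and 607.2 untreated. Rpl14 fell by 0.38 (SE 0.13, limma adjusted p = 0.0443), a call lost without any library but X-ray replicate 1 (adjusted p up to 0.146). In thymus Rpl14 differed by -0.27 ± 0.09 (adjusted p = 0.0525), just outside the threshold, and Rpl36 by 0.33 ± 0.11 (adjusted p = 0.0558). Rpl14 was called in thymus under 5 of 16 alternatives and Rpl36 under 6, DESeq2 included for both.

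Rpl5 and Rpl11 bind 5S rRNA and, when free, Mdm2. Rpl5 had a signal of 1071, 982.1 and 903.5 in X-ray spleen, against 1313, 1185 and 1142 in untreated spleen, with no overlap. In liver Rpl5 lay the other way, with 682.8, 817.6 and 780.7 after X-rays against 588.1, 664.2 and 660.4 untreated, again with no overlap. The differences of -0.30 in spleen, -0.15 in thymus and 0.25 in liver did not pass the limma test (adjusted p = 0.143, 0.413 and 0.240). Rpl11 had 751.8, 643.6 and 522.6 in X-ray spleen, against 748.3, 714.5 and 696.6 untreated, and the groups overlapped. Its differences were -0.19 in spleen, 0.05 in thymus and -0.19 in liver (adjusted p = 0.381, 0.787 and 0.329). Rpl23 and Rpl26, which also bind Mdm2 or the Trp53 mRNA, differed by -0.27 and -0.31 in spleen (adjusted p = 0.148 and 0.0999), by -0.12 and -0.01 in thymus and by 0.13 and -0.08 in liver. None of these 4 was called in any tissue.

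Rplp0, Rplp1 and Rplp2 form the stalk that recruits translation factors. Rplp0 had a signal of 2235, 1735 and 1503 in X-ray spleen, against 2317, 2262 and 2384 untreated. All irradiated libraries were lower, 1 of them by little, and the difference was -0.37 ± 0.20 (limma adjusted p = 0.164). Rplp1 differed by -0.26 in spleen and 0.30 ± 0.11 in thymus (adjusted p = 0.0907), and Rplp2 by 0.01 and 0.13. In liver Rplp1 had 263.8, 115.8 and 208.6 after X-rays, against 286.8, 296.1 and 233.3 untreated, and Rplp2 had 107.6, 61.8 and 96.3 after X-rays, against 124.8, 137.3 and 109.6 untreated. X-ray replicate 2 was the lowest liver library for both genes. Their liver differences were -0.54 ± 0.27 and -0.51 ± 0.20 (limma adjusted p = 0.258 and 0.206).

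As a group, the members were lower in spleen after X-rays by a small amount, and few of them passed the test. The median log2 difference of the 81 tested members was -0.20, against -0.03 over all genes tested, and 73 of 81 were below 0. The quartiles of the members were -0.29 and -0.12, and the medians of small-subunit and large-subunit members were -0.20 and -0.23. In 44 members (54.3%) every X-ray library was below every untreated one, where 28.8% of all genes had that pattern. The reverse pattern was found in 1 member, Rps27l, where 24.5% of all genes had it. By the limma test 7 members fell and 1 rose (8.64% and 1.23%), where 20.4% of all genes were called lower and 19.5% higher. The share of members called was thus below the background in both directions.

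The spleen libraries were unequal. Relative to the untreated mean, the median member was at -0.06 in X-ray replicate 1, -0.18 in replicate 2 and -0.39 in replicate 3, against 0.03, -0.02 and -0.01 in the untreated libraries. In replicate 3, 80 of 81 members were below the untreated mean, against 54 in replicate 1. The median difference was -0.12 without X-ray replicate 3 and -0.29 without X-ray replicate 1. The number of members called was 23 without X-ray replicate 1, where 53.3% of all genes were called, and 1 without X-ray replicate 3, where 23.8% were. Leaving out an untreated library gave 1 (replicate 1) or 3 (replicate 2 or 3), where 26.1%, 24.4% and 30% of all genes were called without replicates 1, 2 and 3.

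Members took 4.29% to 5.37% of the signal in X-ray spleen, against 5.99% to 6.61% in untreated spleen. In X-ray liver the share was 1.34% to 1.61%, against 1.497% to 1.641% untreated, and in X-ray thymus 6.56% to 7.34%, against 6.77% to 7.47% untreated. The 95% Wilson intervals of these shares were at most 0.017 percentage points wide and cover counting error alone. Globin genes took 26.3% to 32.8% of the signal in X-ray spleen, against 15.98% to 22.16% in untreated spleen. With globins left out, the members' share was 6.21% to 7.28% in X-ray spleen, against 7.69% to 7.87% in untreated spleen, so the groups did not overlap on either scale.

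**Figure D2:**
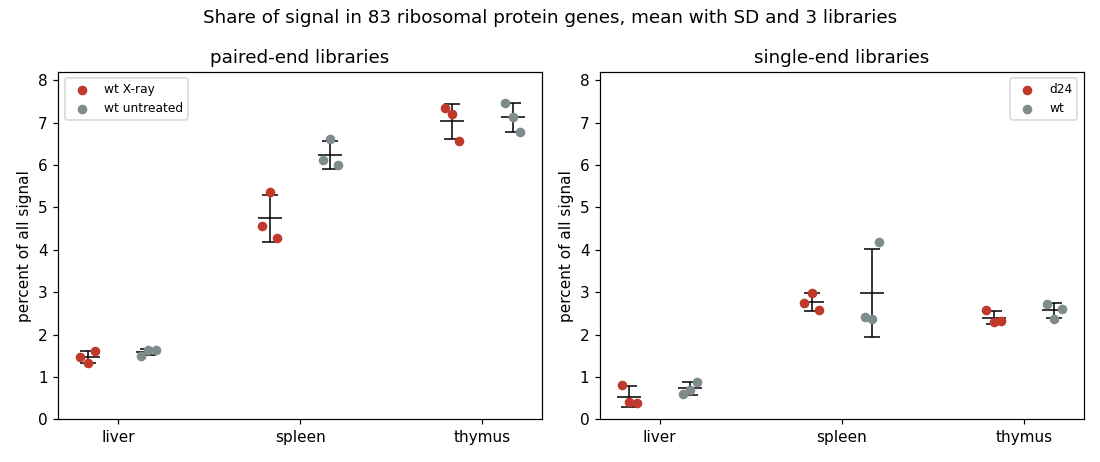
Share of the deposited signal taken by the members, in percent, in each of the 36 libraries, with X-ray left of untreated and d24 left of wt for each tissue. In spleen the X-ray libraries (4.29% to 5.37%) lie below the untreated ones (5.99% to 6.61%).

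Markers of other cell types moved with the spleen comparison. All 7 macrophage markers and all 7 tested hepatocyte markers rose in X-ray spleen, as did 4 of 8 neutrophil markers, 3 of 4 megakaryocyte markers and 3 of 7 B cell markers. Of 6 proliferation genes 3 fell, and of 9 erythroid markers 0 were called. The summed signal was 938 to 1404 in X-ray spleen against 547 to 703 in untreated spleen for macrophages. For hepatocytes it was 97.2 to 549 in X-ray spleen against 45.2 to 65.5 in untreated spleen, and for erythroid markers 194200 to 301500 in X-ray spleen against 112100 to 170700 in untreated spleen. It was 3311 to 5679 in X-ray spleen against 4909 to 5120 in untreated spleen for proliferation genes, with no marker of these lists at 0 in all libraries. In bulk tissue, fewer cells of a type and less RNA per cell cannot be told apart, and the part of these changes in the members' values was not tested.

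In thymus the members did not move as a group. The median difference of 81 tested members was -0.01, against 0.01 over all genes tested, with 39 members above 0 and 42 below. By the limma test 2 rose (Rps27l and Rps19) and 2 fell (Rpl22l1 and Rpl7l1), which is 2.47% in each direction, where 9.77% of all genes were called higher and 11.6% lower. Every X-ray library was above every untreated one in 8 members and below in 10 (9.88% and 12.3%), where 18.6% and 22% of all genes had those patterns. Of these 4 genes 3 are paralogs. In the same comparison 5 of 7 macrophage, 5 of 6 thymic epithelial and 4 of 5 neutrophil markers rose, 1 of 8 T cell markers fell and 4 of 6 proliferation genes fell. The macrophage sum was 484 to 718 in X-ray thymus against 356 to 418 in untreated thymus. The T cell sum was 5537 to 7028 in X-ray thymus against 5554 to 6367 untreated, and the proliferation sum 1358 to 1461 in X-ray thymus against 1778 to 2145 untreated. Their part in the members' values was not tested.

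In liver no member passed the limma test after X-rays, where 0.204% of all genes were called higher and 0.0377% lower. Every X-ray library was above every untreated one in 3 members and below in 10 (3.70% and 12.3%), where 13.5% and 13.9% of all genes had those patterns. At an unadjusted p under 0.05 there were 10 members. Run on the recovered reads, edgeR and DESeq2 also called 0, where 0.242% and 4.76% of all genes were called. The median difference was -0.09, against -0.05 over all genes tested, and 54 of 81 were below 0. The members' median was -0.0166 without X-ray replicate 2, -0.0367 without untreated replicate 2 and -0.14 without untreated replicate 1. The lowest was Rpl36, a large-subunit protein, with a signal of 65.9, 26.2 and 53.2 in X-ray liver, against 81.9, 93.3 and 70.3 untreated. The Rpl36 groups did not overlap, and the difference was -0.84 ± 0.30 (limma adjusted p = 0.194). Rpl13 was next, with 51.9, 25.7 and 42.2 after X-rays, against 63.0, 64.9 and 51.0 untreated, and a difference of -0.62 ± 0.24 (adjusted p = 0.203). Without X-ray replicate 1 the count in liver was 11 members, all lower (13.6% of 81), where 14.5% of all genes were called lower and 7.1% higher, so the share lay near that of all genes.

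**Figure D3:**
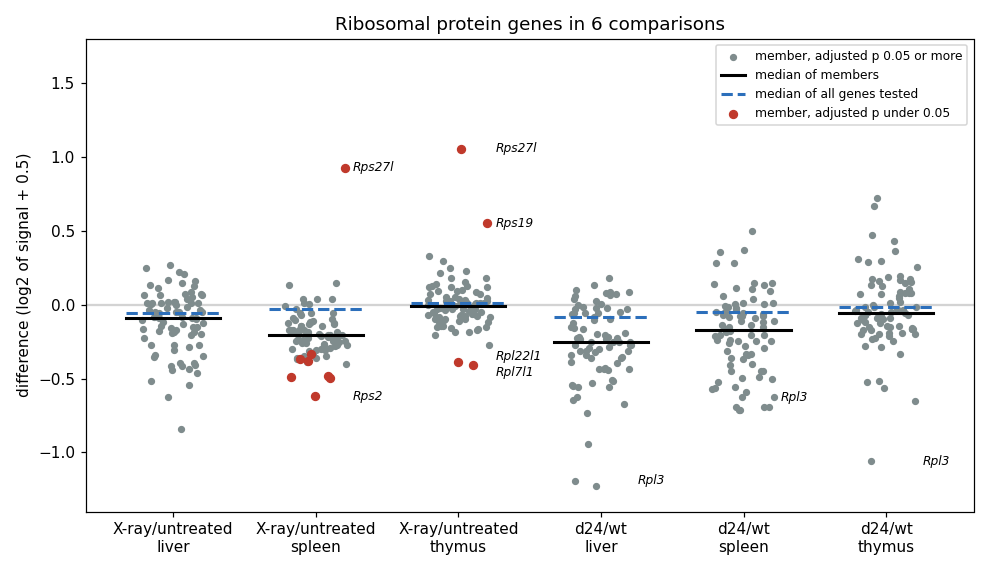
Log2 differences of the members, X-ray minus untreated in the paired-end table and d24 minus wt in the single-end table, by tissue, with 1 point per member and called members marked. The spleen members centre on -0.20 after X-rays and the thymus members on -0.01, with Rps27l far above the rest in both.

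The members' liver differences followed the base composition of their transcripts. GC content was the median over the protein-coding transcripts of a gene in the GENCODE basic set. Across 80 members with such a transcript, the correlation of the X-ray difference with GC content was r = -0.70 (rho = -0.73) in liver, 0.12 (0.28) in spleen and 0.33 (0.56) in thymus. These correlations are across genes that share their libraries and are descriptions with no test. Over all genes tested they were -0.42 in liver (12331 genes), 0.20 in spleen and 0.30 in thymus. The GC content of members ran from 39.8% to 60.8%, with a median of 51.9%. Within liver, the deviation of each library from the mean of all 6 correlated with GC content at 0.43, -0.71 and -0.54 in X-ray replicates 1, 2 and 3, against 0.65, 0.72 and 0.54 in the untreated libraries. X-ray replicate 1 thus lay on the side of the untreated libraries. The part of GC content in the liver differences was not tested.

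**Figure D4:**
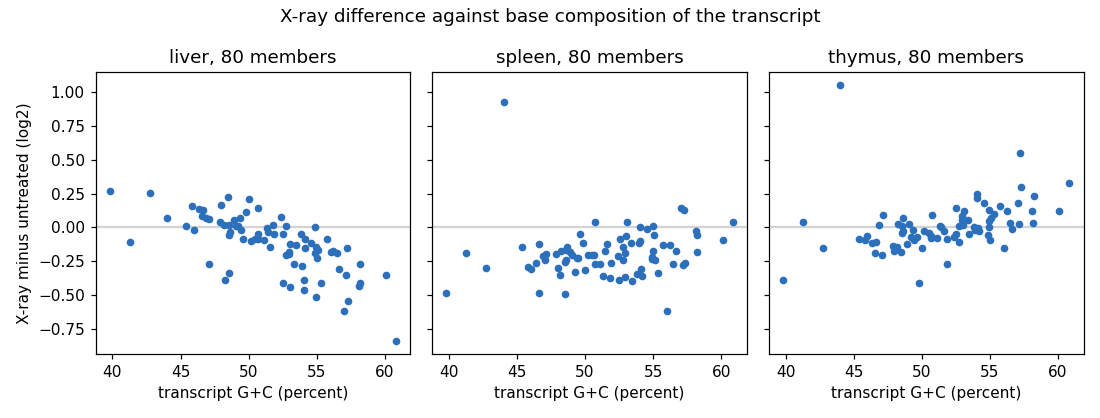
Log2 difference, X-ray minus untreated, of each member against the GC content of its transcript in percent, for liver, spleen and thymus (80 members each, paired-end table). The liver points slope down (r = -0.70), while the spleen and thymus points have r = 0.12 and 0.33.

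The X-ray difference itself varied with tissue in 11 of 81 members (13.6%) by the limma F test of the interaction over 18 libraries, where 30.5% of all genes did. Rps27l had the strongest difference between tissues, with an X-ray effect higher by 0.86 ± 0.13 in spleen than in liver and by 0.99 ± 0.13 in thymus than in liver (F test adjusted p = 0.000121). Rps4x was lower in spleen than in liver by 0.72 (adjusted p = 0.00480) and Rpl22l1 by 0.75 (adjusted p = 0.00550). Rps19 was higher in thymus than in liver by 0.70 (adjusted p = 0.0143). Rpl36a (0.0158), Rpl7l1 (0.0189), Rpl36 (0.0331), Rps6 (0.0348), Rpl5 (0.0395), Rpl13 (0.0438) and Rps3a1 (0.0467) also passed, with the adjusted p of the F test in parentheses. Against liver, the X-ray effect in spleen was higher in 2 members and lower in 10, where 13.6% and 12.8% of all genes were. Against liver, the effect in thymus was higher in 5 and lower in 2, where 8.37% and 7.14% of all genes were. Between spleen and thymus 0 members differed by limma, where 4.15% of all genes were higher and 5.39% lower in spleen. Without X-ray liver replicate 1 the F test called 22 members, where 41% of all genes passed. Without untreated liver replicate 1 it called 6, where 23.7% passed, and without untreated thymus replicate 2 it called 6, where 26.3% passed.

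Genes that work with the members were read from 5 lists. Of 20 translation factors and related genes with a TOP start, 7 fell and 0 rose in X-ray spleen, where 20.4% of all genes were called lower, with a median of -0.26. Cct4, a subunit of the chaperonin that folds actin and tubulin, had a signal of 156.7 ± 12.01 in X-ray spleen and 206.4 ± 18.04 untreated (SD, n = 3 each) and fell by 0.40 on the log2 scale (SE 0.12, limma adjusted p = 0.0281). Nap1l1, a histone chaperone, fell by 0.40 (adjusted p = 0.0301), and Eif4b, which aids the helicase that unwinds the start of mRNAs, by 0.40 (adjusted p = 0.0400). The count of this list was 0 without X-ray replicate 3 or any 1 of the untreated libraries, 4 without X-ray replicate 2, 3 with no filter and 0 with edgeR. In X-ray thymus 3 of the 20 fell, where 11.6% of all genes were called lower, so the count lay near the background. Among them was Npm1, the nucleolar chaperone nucleophosmin, which fell by 0.53 (SE 0.10, limma adjusted p = 0.00629). In thymus 1 of the 20 was called without X-ray replicate 3 or without untreated replicate 2 or 3.

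Genes for ribosomal protein chaperones and ribosome assembly fell in X-ray thymus. Of 24 tested, 13 fell and 0 rose, where 11.6% of all genes were called lower, and the median was -0.43, against -0.01 for the ribosomal proteins themselves. Nop58, a core protein of the box C/D snoRNPs that guide rRNA methylation, had a signal of 48.8 ± 3.3 in X-ray thymus and 103.6 ± 4.4 in untreated thymus (SD, n = 3 each) and fell by 1.08 (limma adjusted p = 2.85e-05). Dkc1, the pseudouridine synthase of the H/ACA snoRNPs, had 37.7 ± 3.4 in X-ray thymus and 75.8 ± 3.7 in untreated thymus and fell by 1.00 (adjusted p = 9.21e-05). Tsr1, which acts late in the maturation of the small subunit, had 14.2 ± 0.8 in X-ray thymus and 28.4 ± 3.7 in untreated thymus and fell by 0.97 (adjusted p = 0.000457). In X-ray spleen 3 of the 24 rose and 1 fell, where 19.5% of all genes were called higher and 20.4% lower, so the list did not exceed the background there. The highest was Mdn1, the ATPase that remodels the pre-60S particle, with 134.2 ± 33.8 in X-ray spleen and 32.2 ± 2.3 untreated, a rise of 2.01 ± 0.18 (adjusted p = 0.000129). In thymus Mdn1 differed by -0.26 ± 0.13 (adjusted p = 0.175). The spleen count of 4 was 7 without X-ray replicate 1, and 1 without either library numbered 3. It was 2 with untreated replicate 1 left out. With replicate numbers as a block it was 7 in spleen.

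Of 18 genes of mTORC1 and TOP control tested in thymus, 7 fell and 2 rose after X-rays, where 11.6% of all genes were called lower and 9.77% higher. Myc, a transcription factor that drives ribosome production, had 19.2 ± 2.6 in X-ray thymus and 43.5 ± 2.4 untreated and fell by 1.17 (limma adjusted p = 0.000128). Larp1, which binds the TOP tract, fell by 0.52 (adjusted p = 0.00514), and Eif4ebp1, the repressor of cap binding that mTORC1 inactivates, rose by 0.85 (adjusted p = 0.00290). In X-ray spleen 6 of 17 fell and 1 rose, where 20.4% of all genes were called lower and 19.5% higher. There Tia1, a translational repressor that binds mRNAs with a TOP tract under stress, fell by 0.48 (SE 0.11, limma adjusted p = 0.00847). Max, the partner of Myc, fell by 0.42 (adjusted p = 0.0113), and Rptor, the mTORC1 subunit that binds its substrates, rose by 0.50 ± 0.14 (adjusted p = 0.0209). Myc differed by -0.07 ± 0.19 in spleen (adjusted p = 0.799). The count of 9 in thymus was 4 without untreated replicate 3 or X-ray replicate 3 and 5 without either replicate 2. The count of 7 in spleen was 1 or 4 without X-ray replicate 3 or 2, and 2 or 3 with any untreated library left out.

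Of 8 host genes of snoRNAs with TOP starts, 2 rose in X-ray spleen and 1 in X-ray thymus, where 19.5% and 9.77% of all genes were called higher, so such counts lay near the background. Snhg12 was called in both, with differences of 0.54 ± 0.12 in spleen (limma adjusted p = 0.00922) and 0.36 ± 0.09 in thymus (adjusted p = 0.0247). The thymus call was the single call of the list, and the count was 0 without any 1 of 5 libraries, all but untreated replicate 3.

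The proteins of the mitochondrial ribosome are encoded by other nuclear genes. Of 77 tested, 41 fell and 1 rose in X-ray spleen, where 20.4% of all genes were called lower and 19.5% higher, and the median was -0.39. The cytosolic members had 7 and 1 of 81 and a median of -0.20, and the difference between the 2 sets was not tested. Mrps22, a small-subunit protein of that ribosome, had 11.1 ± 1.7 in X-ray spleen and 20.6 ± 1.1 untreated and fell by 0.87 (SE 0.13, limma adjusted p = 0.00126). The count of 42 was 20 without X-ray replicate 3, and it was 22 and 27 when untreated replicates 2 and 1 were left out in turn. In thymus 7 of 77 fell and 1 rose, where 11.6% of all genes were called lower and 9.77% higher, with a count between 1 and 3 without untreated replicate 1, 2 or 3 or X-ray replicate 2 or 3. In liver 0 genes of the 5 lists were called by limma after X-rays. The count without X-ray replicate 1 was between 2 and 16 in each list, where 14.5% of all genes were called lower and 7.1% higher. With 1 library left out, 23.8% to 53.3% of all genes were called in X-ray spleen and 11.6% to 20.9% in X-ray thymus. Whether a list differed from these shares was not tested.

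In the single-end table, 0 members passed the limma test between d24 and wt in liver, spleen or thymus. The background was low as well. Of all genes, 0.277% were called higher and 0.248% lower in d24 liver, 1.04% and 1.24% in d24 spleen, and 0.00724% and 0% in d24 thymus. At an unadjusted p under 0.05 there was 1 member in each tissue. DESeq2 called 1 in liver, 1 in thymus and 0 in spleen, where 3.88%, 1.93% and 4.38% of all genes were called. With edgeR 0 members were called, where 0.0803%, 0.0145% and 1.07% of all genes were, in the same order of tissues. Treatment per the characteristics differs between d24 and wt in each tissue, as described above, and this holds for every value that follows.

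Rpl3 was the member with the most regular difference. Rpl3 is a core protein of the large subunit close to the peptidyl transferase centre. It had a signal of 54.5, 47.1 and 39.3 in d24 liver, against 74.5, 120.0 and 137.0 in wt liver. In spleen it had 124.0, 182.9 and 159.6 in d24, against 204.9, 189.3 and 344.8 in wt, and in thymus 91.2, 71.4 and 85.2 in d24, against 191.5, 130.3 and 203.3 in wt. In all 3 tissues every d24 library lay below every wt library, in spleen by a narrow margin. The differences were -1.19 ± 0.29 in liver, -0.63 ± 0.29 in spleen and -1.06 ± 0.20 in thymus (limma adjusted p = 0.107, 0.390 and 0.156).

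Rpl3 was called by DESeq2 in liver (adjusted p = 0.0123) and thymus (adjusted p = 0.000495) and by limma in thymus without d24 replicate 3. Over its alternatives the adjusted p ran from 0.0123 to 0.448 in liver and from 0.000495 to 0.495 in thymus. It was the 1 member of 80 tested in all 3 tissues (1.25%) with every d24 library lower in each of them, a pattern that 53 of 11960 genes had (0.443%). Every d24 library was higher in each tissue in 0 members and in 0.468% of these genes. The pattern over the 3 tissues was singled out after the values were seen. In the paired-end table Rpl3 differed by -0.26 in spleen, -0.08 in thymus and -0.05 in liver after X-rays and was not called.

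**Figure D5:**
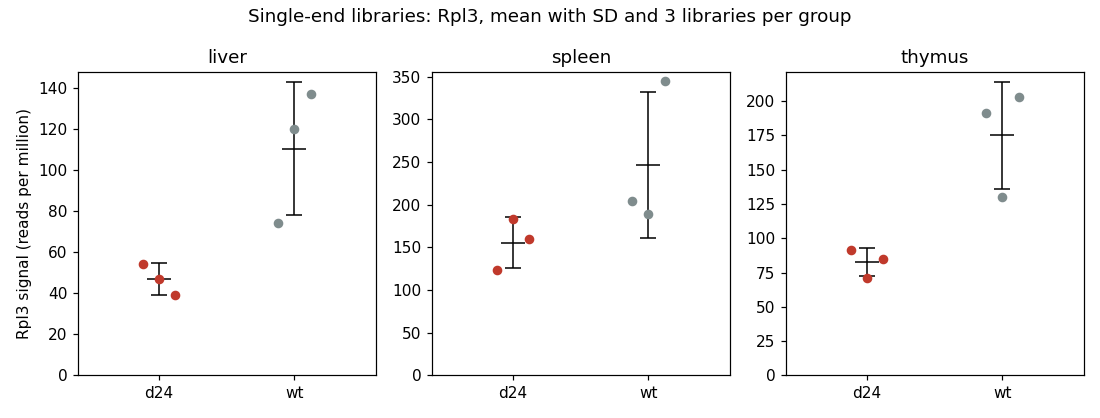
Signal of Rpl3 (reads per 1000000 of scaled library size) in the single-end libraries of liver, spleen and thymus, d24 left of wt, with 1 point per library and the group mean with its SD (n = 3). Every d24 point lies below every wt point in each tissue, and no tissue passed the limma test (adjusted p = 0.107, 0.390 and 0.156).

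Without overlap, 0 of 80 members were higher and 4 (5%) lower in d24 liver, where 7.56% and 11.5% of all genes were, and 0 of 80 were higher and 3 (3.75%) lower in d24 spleen, where 8.74% and 10.6% were. In thymus 7 of 81 were higher and 4 lower (8.64% and 4.94%), where 9.02% and 7.55% of all genes were. The members' medians were -0.25 in d24 liver, -0.17 in d24 spleen and -0.06 in d24 thymus, against -0.08, -0.05 and -0.02 over all genes tested. Members below 0 were 68 of 80, 62 of 80 and 50 of 81 in those tissues.

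These medians rested on single libraries. Relative to the wt mean, the median member was at 0.37, -0.36 and -0.71 in the d24 liver libraries, against -0.34, 0.07 and 0.29 in the wt liver libraries. In spleen it was at -0.36, 0.03 and -0.24 in d24, against -0.25, -0.42 and 0.68 in wt, and in wt replicate 3 no member of 80 was below the group mean. Without that library the spleen median was 0.17, on the other side of 0. In liver the median was 0.00 without d24 replicate 3 and -0.55 without d24 replicate 1. Scaling without ribosomal protein and globin genes, which also drops the submitters' composition factor, gave a members' median of -0.48 in liver. The median of all genes was then -0.32. With edgeR the members' median was -0.12, where that of all genes was 0.01. In thymus the members' median ran from -0.14 without wt replicate 2 to -0.00445 without wt replicate 1.

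Markers of other cell types moved with genotype as titled. All 8 neutrophil markers fell in d24 spleen, with a sum of 95.3 to 809 in d24 spleen against 2576 to 8425 in wt spleen, and 5 of 7 fell in d24 liver, with 16.7 to 67.3 in d24 liver against 373 to 858 in wt liver. All 4 megakaryocyte markers fell in d24 spleen, with 29.4 to 42.1 in d24 spleen against 368 to 875 in wt spleen. In d24 liver 2 of 5 B cell and 2 of 7 T cell markers also fell, with B cell sums of 12.9 to 18.1 in d24 liver against 85.0 to 183 in wt liver and T cell sums of 13.8 to 19.1 in d24 liver against 36.7 to 78.5 in wt liver. In d24 thymus 0 markers were called by limma, but several sums did not overlap. T cell markers summed to 4420 to 7177 in d24 thymus against 7618 to 8207 in wt thymus, macrophage markers to 398 to 959 in d24 thymus against 262 to 287 in wt thymus, and hepatocyte markers to 41.1 to 1332 in d24 thymus against 6.58 to 16.3 in wt thymus. The neutrophil sum was 6.72 to 284 in d24 thymus against 7.29 to 21.2 in wt thymus, with overlap. Their part in the members' values was not tested.

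Rps27l, the p53 target among the members, had a signal of 49.7, 70.8 and 59.9 in d24 spleen, against 39.8, 26.1 and 70.7 in wt spleen. It had 41.8, 33.2 and 15.3 in d24 thymus, against 14.6, 22.2 and 26.5 in wt thymus, and 85.2, 62.5 and 42.4 in d24 liver, against 43.3, 71.4 and 112.2 in wt liver. The groups overlapped in each tissue. The differences were 0.50 ± 0.35, 0.43 ± 0.37 and -0.21 ± 0.38 in that order of tissues (limma adjusted p = 0.617, 0.729 and 0.851). In the same libraries 6 of 10 p53 panel genes were called higher in d24 spleen, 0 of 10 in d24 liver and 0 of 9 in d24 thymus. Rpl22l1 differed by 0.36 in d24 spleen, 0.06 in d24 liver and 0.02 in d24 thymus, and Rps19 by -0.24, -0.43 and 0.00. Rpl11 was among the lowest in liver, with 46.3, 20.0 and 12.3 in d24 liver against 40.3, 41.7 and 49.99 in wt liver. The Rpl11 groups overlapped, with a difference of -0.94 ± 0.43 (limma adjusted p = 0.377). The difference between d24 and wt did not vary with tissue in any of 82 members by the limma F test, where 0.988% of all genes passed. Between pairs of tissues 0 members differed in the genotype effect, where 0.23% of all genes were higher and 0.273% lower in spleen than in liver, 0.224% and 0.0746% in thymus than in liver, and 0.143% and 0.51% in spleen than in thymus.

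Untreated tissues differed in nearly every member. The F test over untreated spleen, thymus and liver called 81 of 81 members, where 95.9% of all genes passed. Spleen was above liver in 77 members and below in 2, where 43% and 42.9% of all genes were called, with a median of 0.92. Thymus was above liver in 66 and below in 5, where 42% and 44.4% were, with a median of 0.48, and spleen was above thymus in 68 and below in 0, where 36.8% and 35.8% were. The members' level thus ran highest in spleen and lowest in liver on the deposited scale. As a share of each library's signal, however, the members took most in thymus, 6.77% to 7.47%, against 5.99% to 6.61% in spleen. With globins left out this order was reversed. The share was then 7.69% to 7.87% in untreated spleen against 6.79% to 7.52% in untreated thymus.

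A further scaling divided each library by the plain total of its reads outside ribosomal protein and globin genes. It thus also dropped the submitters' composition factor. Under it the median of all genes was 1.23 for spleen minus liver, 1.54 for thymus minus liver and -0.28 for spleen minus thymus. The part of either change in this shift was not tested. On that scale the members' medians were 2.37, 2.23 and 0.13, with spleen above thymus in 58 of 81. Relative to all genes, members were thus higher in spleen and thymus than in liver on both scales.

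Rplp0 had the largest step between spleen and liver, with a difference of 1.74, followed by Rps19 with 1.48, Rplp2 with 1.39 and Rps27 with 1.37. Some paralogs ran the other way. On the deposited scale the difference of Rps27l was -1.16 ± 0.08 for spleen minus liver and -1.796 ± 0.075 for thymus minus liver, and that of Rpl7l1 was -0.49 and -0.52. Rpl32l, with 0.90 and 0.65, went with the set, and Rpl22l1 was at 0.09 for spleen minus liver. For thymus minus liver the difference was -0.39 in Rpl22l1, -0.60 in Rps2 and -0.45 in Rpl10. On the scale without ribosomal protein and globin genes 81 of 81 members, Rps27l included, were above liver in spleen, and 80 of 81 in thymus. The medians of all genes were 1.23 and 1.54 on that scale, against 0.01 and -0.03 on the deposited one. Being above 0 there thus does not set a member above most genes.

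Per kilobase of transcript, the most abundant member was Rpl10 in untreated liver, with 1204, and Rps24 in untreated spleen and thymus, with 2289 and 2020. Rps24 came next in liver with 1147, and Rpl41, one of the smallest proteins known, came next in spleen with 2236. The median member had 866.1 in untreated spleen, 609.1 in thymus and 479.2 in liver. Rpl3l and Rpl39l were the lowest in each tissue, followed by Rpl39.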

How the data were processed

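Total RNA of tissue kept in RNAlater was purified on RNeasy Mini columns and sequenced from TruSeq Stranded Total RNA libraries, per the labels' protocols. The submitters' processing notes name edgeR and mm10 without versions. For the alignment, the counting and its use of strand, the tools and settings were not given in the sources used here. The values deposited by the authors are a signal: the reads of each gene per 1000000 of a library size adjusted for composition, a scale on which column totals average 1000000 as a geometric mean. Whole reads were recovered from them (tolerance 0.01 of a read). The paired-end table has 18 further columns, which were left aside because they correspond to no library described here. Because the signal carries a composition factor, it is not plain CPM as the planned design assumed, and the planned limma test was kept.

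Gene numbers were matched to RefSeq symbols for 18380 of 19001 genes (96.7%) in the paired-end table and 17186 of 17697 (97.1%) in the single-end table. Of 90 matches to the name rule 85 were protein-coding. A gene was tested where 3 or more libraries of the comparison had a signal of 1 or more, with limma 3.58.1 (R 4.3.3; eBayes with trend, no block) on log2(signal + 0.5). Fold changes on that scale understate changes of low genes. P-values were adjusted by the Benjamini-Hochberg method over all genes tested, with a threshold of 0.05. Members left out by the filter were Rpl3l and Rpl39l in the paired-end fits, Rpl13, Rpl3l and Rpl39l in d24 liver and spleen, and Rpl13 and Rpl3l in d24 thymus. X-ray against untreated and d24 against wt were fitted per tissue, and interactions and untreated tissues over all libraries of a table or its untreated ones. The tables were normalised separately and never joined.

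The members and lists were chosen with earlier results of these data known. Named members are a panel of paralog pairs, Mdm2-binding, stalk and other well-known proteins, the 4 highest and 4 lowest members of each comparison whose higher group averaged 5 or more, and called members where 5 or fewer were called. Up to 3 genes of smallest p are named from each other list. Samples with the same replicate number deviated together in X-ray spleen (correlations of 0.177, 0.241 and 0.191). The animal behind each library was not given, so whether equal numbers mark paired samples cannot be told. With the number as a block 10 members were called in X-ray spleen, where 42.6% of all genes were called. Alternatives were pseudocounts of 0.1 and 2, no filter, a mean of at least 5, median-ratio scaling, scaling without ribosomal protein and globin genes, a replicate block, limma without trend, DESeq2 1.42.0 and edgeR 4.0.16 on recovered reads, and leaving out each library. The scaling without ribosomal protein and globin genes used plain totals of the remaining reads, without the submitters' composition factor. Scripts were tested on simulated data.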

Additional observations from a re-analysis of the deposited data

Results flagged for a closer look

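In 11 members the X-ray difference varied between liver, spleen and thymus by the limma F test of the interaction (Benjamini-Hochberg adjustment over all genes tested, 3 libraries per group), and the values below set the X-ray effect of spleen and thymus against that of liver on the log2 scale. The share of members that passed was 13.6%, where 30.5% of all genes passed, and the difference between these shares was not tested.

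Rps27l had effects 0.86 above liver in spleen and 0.99 above in thymus (limma adjusted p = 0.000121). Rps4x had effects 0.72 and 0.41 below liver, coded -0.72 and -0.41 (adjusted p = 0.00480), and Rpl22l1 -0.75 and -0.65 (adjusted p = 0.00550). Rps19 had 0.28 and 0.70 (adjusted p = 0.0143). These 4 passed under all 28 alternatives.

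Rpl36a had -0.57 and -0.27 (limma adjusted p = 0.0158) and Rpl7l1 had -0.23 and -0.53 (adjusted p = 0.0189), and each was lost under 1 of 28 alternatives. Rpl36 had 0.88 and 1.17 (adjusted p = 0.0331) and was lost under 6. Rps6 had -0.52 and -0.36 (adjusted p = 0.0348) and was lost under 11, and Rpl5 had -0.55 and -0.41 (adjusted p = 0.0395) and was lost under 15. Rpl13 had 0.77 and 0.80 (adjusted p = 0.0438) and was lost under 17. Rps3a1, a small-subunit protein, had -0.47 and -0.34 (adjusted p = 0.0467) and was lost under 20.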

How the results depend on the processing

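Of the 10 members called after X-rays, Rps27l in spleen (0.84 to 1.00) and thymus (1.00 to 1.13) and Rps19 and Rpl7l1 in thymus passed under all 16 alternatives run for each. The other calls were lost under 2 (Rpl22l1 and Rpl36a in spleen), 4 (Rps2 and Rps4x), 6 (Rpl22), 7 (Rpl14) or 8 (Rpl32l, and Rpl22l1 in thymus) of 16, and no direction of a call was reversed. X-ray spleen had 8 members called, 5 with edgeR and 18 with DESeq2, where 40%, 39.4% and 43.9% of all genes were called. It had 1 to 23 leaving out 1 library, where 23.8% to 53.3% of all genes were called. X-ray thymus had 4, and 10 with DESeq2, where 21.3% and 26.6% of all genes were called. Leaving out 1 library gave 0 to 11 in X-ray liver, where 0.0684% to 21.6% of all genes were called. It gave 0 to 1 in d24 thymus, where 0% to 0.533% were, and 6 to 22 in the X-ray-by-tissue test, where 22.2% to 41% were. That test had 11 in the main fit, 6 with edgeR and 19 with DESeq2, where 30.5%, 26.9% and 36% of all genes passed. In d24 thymus DESeq2 called 1 member, where 1.93% of all genes were called. In d24 liver DESeq2 called 1 and scaling without ribosomal protein and globin genes called 1, where 3.88% and 1.09% were called. Each of these was Rpl3. That scaling turned the split of all calls in d24 liver to 47 higher and 102 lower, against 38 and 34. The cause of these shifts was not tested.

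With replicate number as a block, 10 members were called in X-ray spleen and 6 in X-ray thymus, where 42.6% and 30.9% of all genes were called. In the other comparisons within a tissue 0 members were called under the block. In X-ray thymus the block also moved the count of translation factors with a TOP start to 6 and of mitochondrial ribosomal proteins to 13, and in X-ray spleen it moved that of assembly genes to 7. No count of ribosomal protein members moved by over 1.5 times under the block. The correlations of same-numbered deviations were 0.0554, 0.476 and 0.249 in X-ray thymus, where all genes called went from 21.3% to 30.9% under the block. Outside X-ray spleen and X-ray thymus these correlations were not all above 0. Whether equal numbers mark paired samples was not given in the labels. Depth limits Rpl3l and Rpl39l, which were near or under a signal of 1.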

Other observations

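The single-end and paired-end tables gave different pictures of single members. In wt groups of the same title, the median ratio of single-end to paired-end signal was 0.35 in liver, 0.38 in spleen and 0.29 in thymus. It was under 0.1 in 14, 14 and 15 of 83 members and over 1 in 12, 15 and 9. Rps27 had a signal of 2.32 to 11.9 in every single-end library, and Rpl13 at most 2.09. The tables were normalised separately and differ in read layout. Treatment may differ as well: the characteristics call the single-end wt spleen libraries controls, and Cdkn1a, a p53 target, had a signal of 5.46 to 9.37 there against 150 to 163 in paired-end X-ray spleen. Titles and characteristics both call single-end wt thymus irradiated. Cdkn1a had 11.3 to 16.5 there, against 97.7 to 113 in paired-end X-ray thymus and 11.1 to 15.4 in untreated thymus. In single-end wt liver it had 17.7 to 147, against 109 to 127 in paired-end X-ray liver. Levels cannot be set side by side between the tables, and what separates them was not tested.

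Rpl39, found in the paired-end table alone, had a signal of 7.45, 5.13 and 5.12 in X-ray liver, against 8.05, 8.37 and 9.33 in untreated liver. In spleen it had 14.03, 13.1 and 8.74 after X-rays, against 15.3, 17.9 and 15.9 untreated, and in thymus 11.8, 8.15 and 7.96 after X-rays, against 9.28, 9.02 and 10.9 untreated. The X-ray libraries were lower in liver and spleen without overlap, and the thymus groups overlapped.

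The length of the pyrimidine run did not order the X-ray differences in an obvious way. In spleen the median difference was -0.16 in 24 members with a run of at least 8 bases and -0.23 in 37 with a shorter one, in thymus 0.01 and -0.02, and in liver -0.12 and -0.08. The letters of the p53 half-site were searched by its consensus on both strands (it is its own reverse complement) in the 300 bases around each annotated start. A match around any start of the gene was present in 5 members (7.9%), against 9.6% of all genes with a promoter entry. Around the start with the most matches, Rps27l held 2, and Rps19, Rps27, Rpl35a and Rps21 held 1 each. A match is a description of the reference sequence.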
